A study of Mus musculus with 8 samples.

Results

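The sodium chloride cotransporter NCC (gene Slc12a3) and the genes that set its activity were examined in sorted distal convoluted tubules (DCT) of mice with and without TBC1D4. A total of 9 genes were listed by name, and 8 of them were measured, of 18782 genes named by an array probe set with a single gene symbol. The 8 are Slc12a3, Wnk1, Wnk4, Stk39, Oxsr1, Cul3, Nedd4l and Ppp1r1a. Klhl3, which encodes the substrate adaptor of the CUL3 ubiquitin ligase, was paired with no probe set in the annotation used and is not analysed here. Each gene was read by its brightest probe set, and only Wnk1 had another.

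The arrays came from 4 TBC1D4-deficient and 4 wild-type samples, all from male C57/Bl6 mice aged 8 weeks. TBC1D4, also called AS160, acts on Rab GTPases and controls traffic of GLUT4 vesicles, and the study asked what changes in the DCT when it is missing. Mice of both genotypes also carried an EGFP transgene driven by the parvalbumin promoter, which is active mainly in the early DCT, so tubules without EGFP would not have been collected. The sources used here do not say whether a sample came from 1 animal or from pooled animals, or how Tbc1d4 was disrupted. The p-values therefore take these samples, not animals, as the unit.

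NCC reabsorbs sodium and chloride from the lumen of the DCT and is the target of thiazide diuretics. WNK kinases phosphorylate and switch on the kinases SPAK (Stk39) and OSR1 (Oxsr1), which in turn phosphorylate NCC at its amino terminus and activate it. A ubiquitin ligase of CUL3 and KLHL3 marks WNK kinases for degradation, the ligase NEDD4-2 (Nedd4l) lowers NCC protein, and inhibitor-1 (Ppp1r1a) blocks protein phosphatase 1. Much of this control acts on proteins, and the arrays measured RNA only.

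The tissue label was checked first. All 8 DCT markers were measured, with mean intensities between 344.6 for the transcription factor Emx1 and 2884 for Slc12a3, and Pvalb, the gene whose promoter drove the EGFP, averaged 842.3. Intensity here is the deposited linear value of a probe set in arbitrary units, and it orders samples for 1 probe set, not genes among themselves. Markers of other cells were present as well. Umod, taken here as a thick ascending limb marker, averaged 2228. The 8 markers of that list had a median of 34.08 and a lowest mean of 6.05. Slc34a1, a proximal tubule phosphate transporter, ranged from 403.5 to 1166 between arrays. The summed intensity of 16 proximal tubule markers ran from 1339 to 3456 in TBC1D4-deficient arrays and from 1936 to 4503 in wild-type arrays. The sum of 9 endothelial markers ran from 112.3 to 144.5 in TBC1D4-deficient arrays and from 155.6 to 169.9 in wild-type arrays, with no overlap. All 16 proximal tubule, 9 endothelial and 5 principal cell markers averaged lower in TBC1D4-deficient arrays. So did 5 of 6 intercalated cell, 4 of 5 stromal and 5 of 8 thick ascending limb markers. For DCT markers it was 3 of 8, for leukocyte markers 2 of 5 and for podocyte markers 1 of 3. The part of endothelial, principal, intercalated or stromal cells in the values of the 8 genes was not tested. In bulk samples, fewer cells of a type and less RNA per cell cannot be told apart. Tbc1d4 had intensities of 4.638 to 6.594 in TBC1D4-deficient arrays and 95.64 to 122.8 in wild-type arrays, and all 8 arrays fitted their labels.

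The transcript levels of NCC and its 7 measured regulators did not differ between genotypes beyond the spread between arrays. In a limma fit over 23039 probe sets, 0 of the 8 passed a Benjamini-Hochberg adjusted p of 0.05, and 0 had an unadjusted p below 0.05. Over all probe sets, 0.00434% passed the adjusted threshold (Tbc1d4 alone) and 2.9% had an unadjusted p below 0.05. The groups overlapped for each of the 8 genes, while 1.85% of all probe sets had groups that did not overlap. Of the 8 log2 differences, TBC1D4-deficient minus wild-type, 3 lay above 0 and 5 below. They ran from -0.08 to 0.02 with a median of -0.0047, beside a median of -0.0017 over all probe sets.

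**Figure D1:**
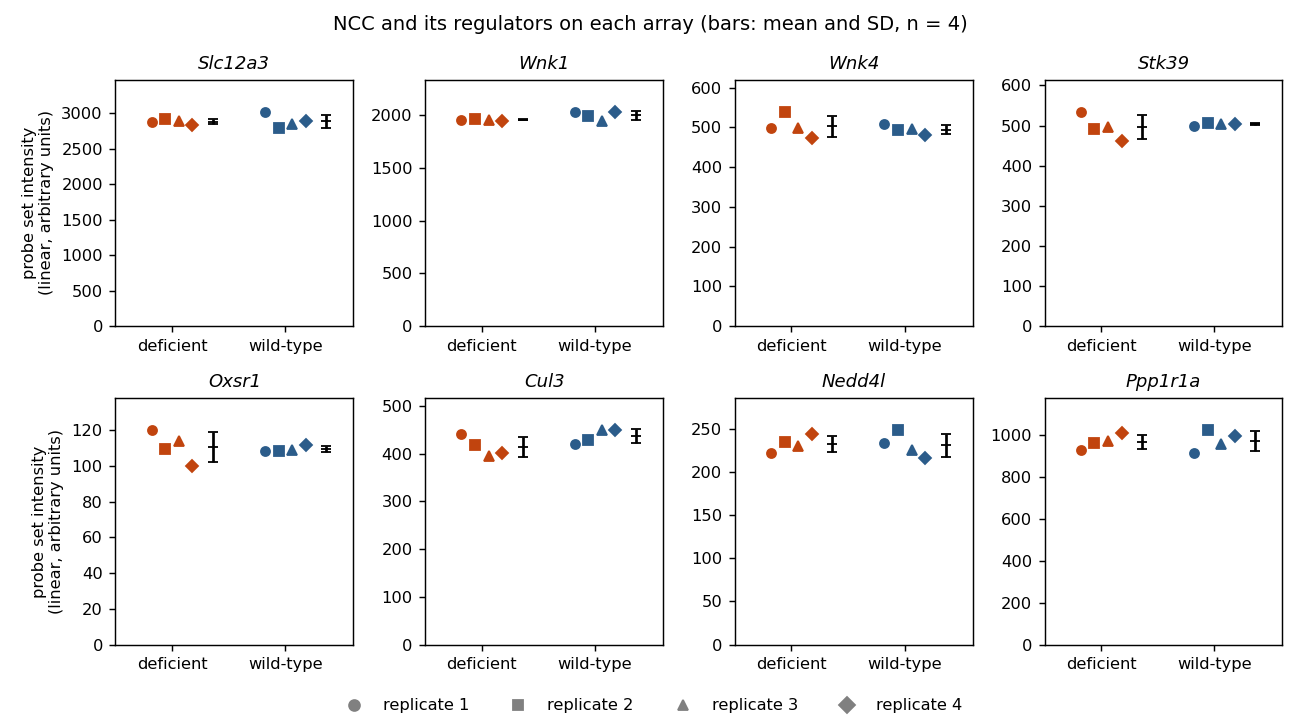
Intensity (linear, arbitrary units, axis from 0) of the brightest probe set of each of the 8 genes on each array, TBC1D4-deficient on the left and wild-type on the right of each panel, with symbols for replicates 1 to 4 and bars for mean and SD (n = 4 each). The 2 genotypes overlap in every panel, and the TBC1D4-deficient points of Oxsr1 spread from 100.1 to 120 around tightly grouped wild-type points.

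The transporter itself was the steadiest readout after Wnk1. Slc12a3 (chromosome 8) had intensities of 2878, 2925, 2889 and 2832 in TBC1D4-deficient replicates 1 to 4, against 3021, 2797, 2843 and 2887 in wild-type replicates 1 to 4. Both the highest and the lowest array were wild-type, so the TBC1D4-deficient values lay inside the wild-type range. The fold was 0.998 (95% interval 0.918 to 1.09; log2 difference -0.0025, SE 0.05; limma adjusted p = 0.9999), and an exact 2-sided permutation test gave p = 0.914. With 4 arrays against 4, that test cannot go below 0.0286. The Slc12a3 probe set ranked 6 from the brightest of those with a symbol, where array signals can be compressed and a small difference understated.

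The WNK kinases sit at the top of the cascade. Wnk1 (chromosome 6) had intensities of 1958, 1967, 1959 and 1950 in TBC1D4-deficient arrays and 2029, 1997, 1943 and 2033 in wild-type arrays. The TBC1D4-deficient values lay close together and inside the wild-type range, and 3 of the 4 wild-type arrays stood above all of them. The fold was 0.979 (0.903 to 1.06; limma adjusted p = 0.9999; exact permutation p = 0.143).

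The other Wnk1 probe set was less steady. It read 614.5, 623.7, 663.3 and 607.4 in TBC1D4-deficient arrays, against 726.8, 720.9, 512.9 and 618.5 in wild-type arrays. Wild-type replicates 1 and 2 were the highest of the 8 arrays and wild-type replicate 3 the lowest, and the fold was 0.982 (0.833 to 1.16; limma adjusted p = 0.9999). The kidney makes a short form of WNK1 that lacks most of the kinase domain, and the sources used here do not say which form each probe set reads.

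Wnk4 (chromosome 11), the WNK kinase best known for control of NCC, had intensities of 497.5, 539, 499.6 and 472.5 in TBC1D4-deficient arrays and 509, 493, 495.1 and 480.8 in wild-type arrays. Both the highest array (replicate 2) and the lowest (replicate 4) were TBC1D4-deficient. The fold was 1.01 (0.924 to 1.11; limma adjusted p = 0.9999; exact permutation p = 0.686).

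The kinases that phosphorylate NCC had similar averages in both genotypes and unequal spread. Stk39 (chromosome 2), which encodes SPAK, had intensities of 534.2, 491.4, 495.7 and 461 in TBC1D4-deficient arrays, against 499.5, 506.8, 502.9 and 504.7 in wild-type arrays. On the log2 scale the SD was 0.09 in TBC1D4-deficient arrays and 0.0089 in wild-type arrays (n = 4 each), and this difference in spread was not tested. The fold of the averages was 0.983 (0.895 to 1.08; limma adjusted p = 0.9999; exact permutation p = 0.6).

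Oxsr1 (chromosome 9), which encodes OSR1, the close relative of SPAK, showed the same arrangement. Its intensities were 120, 109.4, 114 and 100.1 in TBC1D4-deficient arrays and 108.7, 108.7, 108.9 and 111.9 in wild-type arrays, with a log2 SD of 0.11 in TBC1D4-deficient arrays and 0.02 in wild-type arrays (n = 4 each). As for Stk39, TBC1D4-deficient replicate 1 was the highest of the 8 arrays and TBC1D4-deficient replicate 4 the lowest. The fold was 1.01 (0.911 to 1.12; limma adjusted p = 0.9999; exact permutation p = 0.8).

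**Figure D2:**
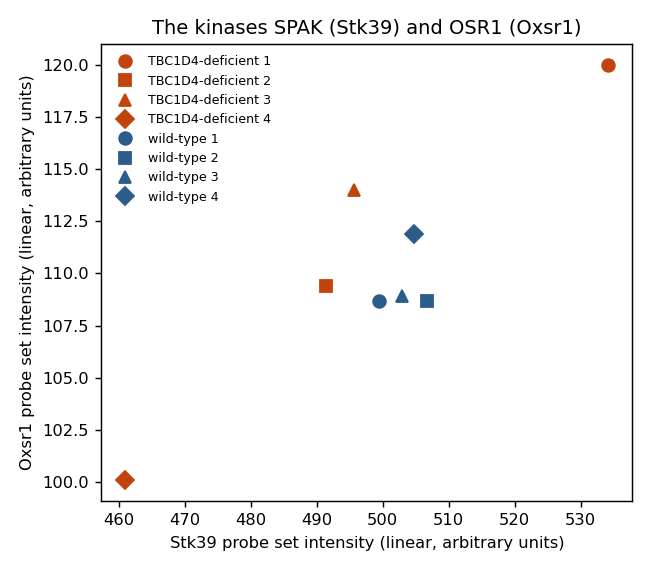
Intensity of the Stk39 probe set (horizontal) against that of the Oxsr1 probe set (vertical), both linear in arbitrary units, 1 point per array, with colour for genotype and symbol for replicate. The wild-type arrays sit close together, while TBC1D4-deficient replicate 1 (534.2 and 120) and replicate 4 (461 and 100.1) lie at opposite corners.

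Among the genes that restrain the cascade or NCC, Cul3 had the largest difference of the 8. Cul3 (chromosome 1), the scaffold of the ligase that removes WNK kinases, had intensities of 441.7, 417.6, 394.7 and 400.4 in TBC1D4-deficient arrays, against 420, 428.8, 448.8 and 448.9 in wild-type arrays. TBC1D4-deficient replicates 2, 3 and 4 stood below every wild-type array, and replicate 1 stood above wild-type replicates 1 and 2. The fold was 0.947 (0.862 to 1.04; log2 difference -0.08, SE 0.06; limma adjusted p = 0.9999; exact permutation p = 0.114, and 0.572 after adjustment over the 8 genes). Within the arrays whose descriptions open with the numbers 5 to 8, a number of unstated meaning, the log2 difference was -0.14, and within those numbered 9 to 12 it was -0.016, with 2 arrays of each genotype in each set.

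Nedd4l (chromosome 18) had intensities of 222.6, 235.1, 230.8 and 244.9 in TBC1D4-deficient arrays and 233.8, 248.8, 226.1 and 216.8 in wild-type arrays. The TBC1D4-deficient values lay inside the wild-type range, and the fold was 1.01 (0.914 to 1.11; limma adjusted p = 0.9999; exact permutation p = 0.8). Ppp1r1a (chromosome 15), an inhibitor of the phosphatase that can dephosphorylate proteins of this pathway, had intensities of 928.2, 962.4, 972.4 and 1011 in TBC1D4-deficient arrays, against 915.3, 1024, 957.2 and 997.7 in wild-type arrays. Here too the wild-type range enclosed the TBC1D4-deficient values, and the fold was 0.995 (0.906 to 1.09; limma adjusted p = 0.9999; exact permutation p = 0.914).

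For the brightest probe set of each gene, the intervals of the measured differences were narrow. The 95% interval lay inside 1.2-fold in either direction for 8 of 8, for 22 of 30 genes of a wider list described next, and for 59.2% of all probe sets, many of which are dim. It did not for the other Wnk1 probe set, and where signals of bright probe sets such as that of Slc12a3 are compressed, the interval does not limit the difference in RNA. Within the arrays numbered 5 to 8 and 9 to 12, the log2 difference of Slc12a3 was 0.02 and -0.03, of Wnk1 -0.01 and -0.05, and of Wnk4 -0.02 and 0.07. For Stk39 it was -0.08 and 0.03, for Oxsr1 -0.03 and 0.06, for Nedd4l 0.0034 and 0.02, and for Ppp1r1a 0.0021 and -0.016. The sign differed between the sets for 5 of these 7 genes, and 0 of the 8 genes passed the adjusted threshold in either set.

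A wider list of 33 genes acting on NCC or on the same kinases was examined in the same fit, and 30 of them were measured. Of the 30, 17 lay above 0 and 13 below, with a median log2 difference of 0.03. By their brightest probe sets, 0 again passed the threshold and 0 had an unadjusted limma p below 0.05. The groups did not overlap for 2 of the 30, Cab39 and Nedd4, beside 1.85% of all probe sets, and so small a count is not read as a result about the list.

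Cab39, which encodes the scaffold MO25 that boosts SPAK and OSR1 activity, had intensities of 214.4 to 219.6 in TBC1D4-deficient arrays and 198.5 to 213.5 in wild-type arrays. The log2 difference was 0.07 (-0.05 to 0.19; limma adjusted p = 0.9999; exact permutation p = 0.0286, not adjusted). A much dimmer probe set of the gene stood at 0.02 with overlapping groups. Nedd4, the paralog of Nedd4l, had intensities of 429.6 to 446.1 in TBC1D4-deficient arrays and 447 to 472.7 in wild-type arrays. Its log2 difference was -0.06 (-0.18 to 0.06; limma adjusted p = 0.9999; exact permutation p = 0.0286, not adjusted). Groups that do not overlap always give this lowest permutation p. In both genes the nearest arrays of the 2 genotypes were almost level.

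The probe sets of the other WNK kinases gave low signals. Wnk2 ran from 7.863 to 9.331 in TBC1D4-deficient arrays and from 8.554 to 9.435 in wild-type arrays, and Wnk3 from 3.886 to 4.394 in TBC1D4-deficient arrays and from 3.754 to 4.074 in wild-type arrays. The log2 differences were -0.06 for Wnk2 and 0.11 for Wnk3, and without detection calls neither level can be told from background.

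Partners of CUL3 and the phosphatases were spread on both sides of 0. Rbx1, the RING subunit that pairs with CUL3, stood at 0.10 (-0.03 to 0.23) by its brightest probe set. By its other probe set it stood at 0.20 (0.05 to 0.36; limma adjusted p = 0.9999). Ppp1cb, a catalytic subunit of protein phosphatase 1, stood at -0.19 (-0.38 to 0.0058). Among brightest probe sets of the list it had the smallest unadjusted limma p, 0.056 (limma adjusted p = 0.9999). Ppp1cb intensities ran from 355.5 to 446 in TBC1D4-deficient arrays and from 421.3 to 513.9 in wild-type arrays. For the cotransporters that SPAK and OSR1 also act on, Slc12a2 (NKCC1) stood at 0.12 (-0.04 to 0.28), Slc12a7 (KCC4) at 0.07 (-0.08 to 0.23) and Slc12a1 (NKCC2, of the thick ascending limb) at -0.09 (-0.38 to 0.19). Kcnj10, a basolateral potassium channel subunit through which plasma potassium acts on the WNK kinases, stood at 0.07 (-0.12 to 0.25). Hsd11b2, the enzyme that protects the mineralocorticoid receptor from glucocorticoids, stood at -0.22 with a wide interval (-0.65 to 0.20). Its intensities ran from 55.32 to 97.9 in TBC1D4-deficient arrays and from 69.8 to 105.5 in wild-type arrays.

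**Figure D3:**
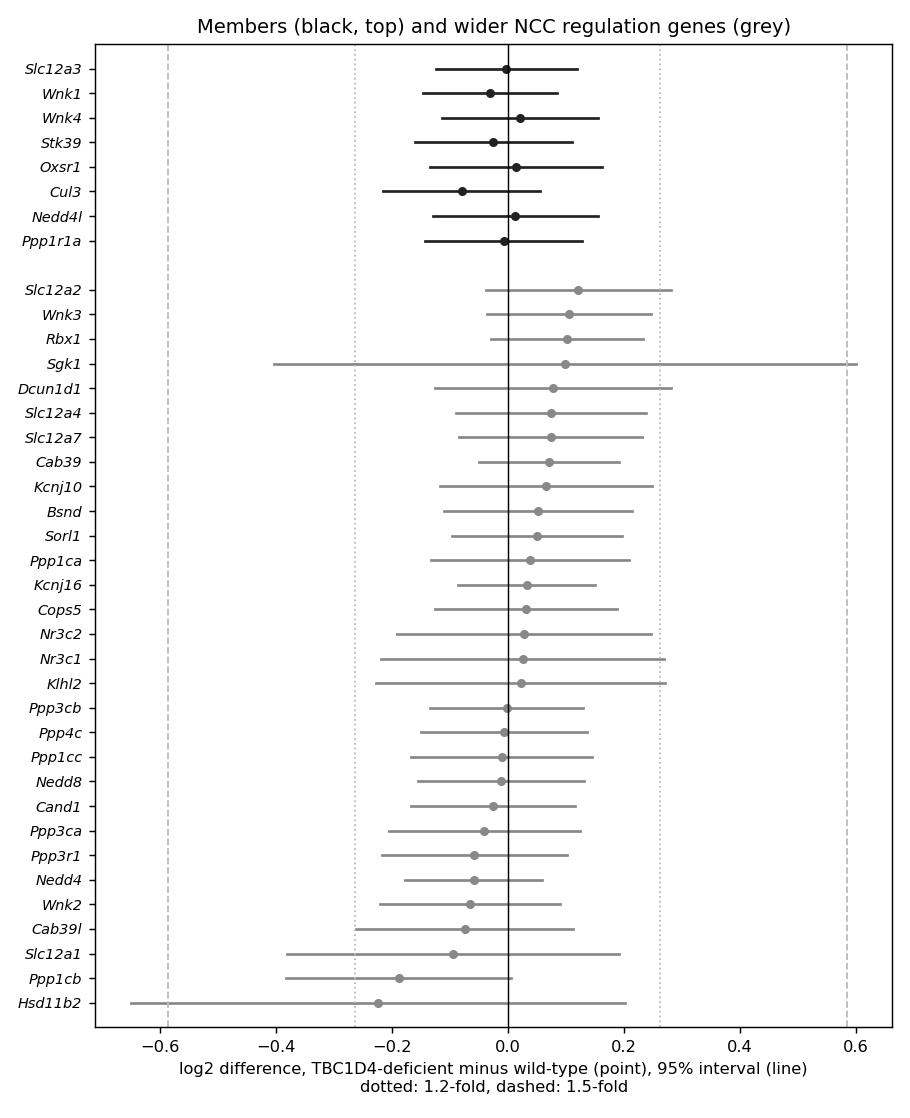
Log2 difference, TBC1D4-deficient minus wild-type (points), with the 95% interval of the limma fit (lines) for the 8 genes (black, top) and the 30 measured genes of the wider list (grey), with dotted lines at 1.2-fold and dashed lines at 1.5-fold. All 8 black intervals cross 0 and stay inside 1.2-fold, and all 30 grey intervals cross 0.

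Between single arrays the 8 genes did not move as one. Of the 28 pairs of genes, 14 had a positive and 14 a negative Pearson correlation over the 8 arrays, and 0 passed after Benjamini-Hochberg adjustment of exact permutation p-values. The highest was between Stk39 and Oxsr1 (r = 0.90, exact permutation p = 0.0222, adjusted p = 0.341; Spearman rho = 0.42, exact permutation p = 0.302, adjusted p = 0.847). Without TBC1D4-deficient replicates 1 and 4, the arrays farthest from the Stk39 median, r was -0.23, so the relation rests on those arrays. Slc12a3 and Ppp1r1a varied in opposite directions (r = -0.75, exact permutation p = 0.0244, adjusted p = 0.341; rho = -0.64, exact permutation p = 0.0962, adjusted p = 0.539). Without wild-type replicates 1 and 2, r was -0.29, so this relation rests on them too. Slc12a3 and Wnk4 varied in the same direction (r = 0.53, exact permutation p = 0.169, adjusted p = 0.633; rho = 0.79, exact permutation p = 0.0279, adjusted p = 0.444), and this was the highest rho of the 28. Without wild-type replicates 1 and 2, r was 0.78 (exact permutation p = 0.0486, not adjusted). The number sets hold 4 arrays each, too few for a correlation within a set.

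TBC1D4-deficient replicate 4 was the lowest of the 8 arrays for Wnk4, Stk39 and Oxsr1, ranked 7 from the highest for Slc12a3, Wnk1 and Cul3, and ranked 2 for Nedd4l and Ppp1r1a. Ranks do not show distance, and for Wnk1 its value was close to that of TBC1D4-deficient replicate 1 (1950 and 1958). Its proximal tubule marker mean, each marker centred on its average over the 8 arrays, was 0.06 on the log2 scale, near the middle of a range whose ends were -1.02 (TBC1D4-deficient replicate 1) and 0.75 (wild-type replicate 3). Its thick ascending limb mean was 0.08, in a range from -0.23 to 0.21 with the same arrays at the ends. Its DCT mean, which includes Slc12a3, was -0.025, near the low end of a range from -0.026 to 0.038. The part of these mixtures in its ranks was not tested.

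**Figure D4:**
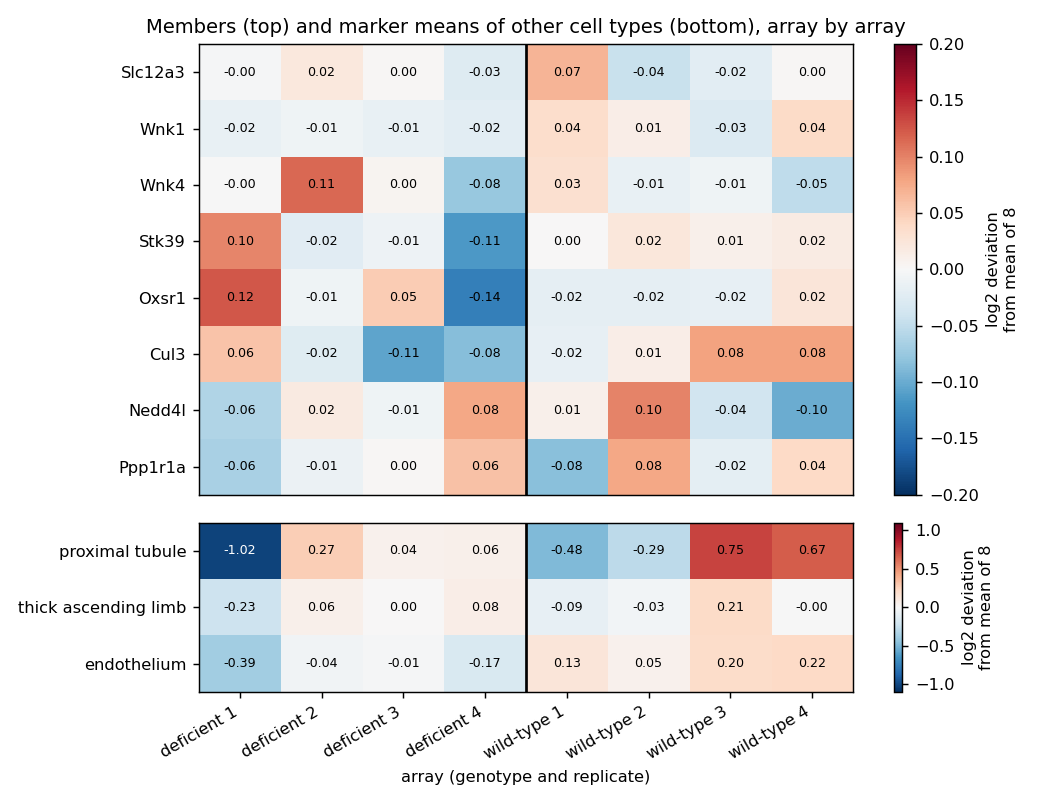
Deviation of each array from the mean of the 8 arrays on the log2 scale, for the 8 genes (top) and for the mean of the markers of 3 other cell types (bottom, wider colour scale), with TBC1D4-deficient arrays to the left of the line and wild-type arrays to the right. The proximal tubule markers range from -1.02 to 0.75, several times the range of any of the 8 genes.

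Proximal tubule markers varied far more between arrays than the 8 genes did. The 8 genes were set against the proximal tubule and thick ascending limb marker means over the 8 arrays, and 0 of these 16 relations passed after adjustment. Slc12a3 had r = -0.19 with the proximal tubule mean (exact permutation p = 0.653, adjusted p = 0.937; rho = -0.10, exact permutation p = 0.840, adjusted p = 0.840) and r = -0.20 without TBC1D4-deficient replicate 1 and wild-type replicate 3, the most extreme arrays. By Pearson r over all 8 arrays, the largest in size was that of Oxsr1 with the thick ascending limb mean (r = -0.61, exact permutation p = 0.0951, adjusted p = 0.882; rho = -0.32, exact permutation p = 0.433, adjusted p = 0.804). It was r = -0.44 without the same pair of arrays. Other measures gave another order. Stk39 had the largest rho with that mean (r = -0.58, exact permutation p = 0.110, adjusted p = 0.882; rho = -0.64, exact permutation p = 0.0962, adjusted p = 0.804; r = -0.70 without the pair). Without the pair, Wnk1 had the largest r, -0.75 (exact permutation p = 0.0903, adjusted p = 0.748).

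The genes whose pattern over the arrays was most like that of Slc12a3 were sought among 4461 other genes with a mean log2 intensity of at least 6. The 5 highest correlations over the 8 arrays belonged to Apmap (r = 0.91, rho = 0.93), Cnep1r1 (0.88 and 0.93), Fam117a (0.87 and 0.60), Rnf152 (0.87 and 0.79) and Copa (0.87 and 0.71), a subunit of the COPI vesicle coat. They were picked as the highest of 4461 and were not tested, so their size is no sign of shared control. Slc12a3 varied only 1.08-fold between its highest and lowest array, so this likeness describes very small movements. Among its own regulators, Wnk4 ranked 381 of 4461 (r = 0.53), Wnk1 ranked 550 (r = 0.46) and Ppp1r1a ranked 4396 (r = -0.75). Between them stood Oxsr1 (rank 1547, r = 0.18), Stk39 (1944, r = 0.08), Cul3 (2750, r = -0.11) and Nedd4l (3392, r = -0.29).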

How the data were processed

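Linear intensities of 28371 probe sets were deposited by the authors for 8 Affymetrix arrays (100 ng RNA each, biotin label). Affymetrix Power Tools was used, per the submitters' processing notes. Its version and the normalization were not given in the sources used here. Column medians of 8.41 to 9.03 were near one another but not equal. Centring each array on its median moved the median log2 difference over all probe sets from -0.0017 to 0.019, so differences this small depend on the scale. No detection calls were at hand, and the number of arrays limits the precision. Samples were grouped by title. The log2 of the values was taken without pseudocount, renewed normalization or filter, and limma 3.58.1 under R 4.3.3 (lmFit, eBayes, 2-sided, no covariate) compared the genotypes over 23039 probe sets with at least 1 symbol. Names came from the platform annotation (21158 probe sets with 1 symbol, 1881 with several, 5332 with none), and chromosomes from the mouse RefSeq table, which matched all 8 measured genes. Intervals are 95% confidence intervals of the fit. The eBayes step moves the spread of each probe set toward a value common to all of them. For a steady gene such as Wnk1 (pooled log2 SD within genotypes 0.02, SE of the difference 0.05), it widens the limma interval and raises the limma p-value. The script was tested on simulated data.

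The genes, the wider list and the markers were chosen with earlier results of these data known. Besides the 8 genes, the text names from the wider list the 8 with the smallest limma p, which include Wnk3 and Cab39, and also Wnk2, Kcnj10 and Slc12a1, the 5 most like Slc12a3, and markers. Correlations among the genes were added after the data were seen. Alternatives covered normalization, a pseudocount, a filter, the rows fitted, the prior, array weights, the numbers in the labels, the proximal tubule marker mean, the other probe set and leaving out each array.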

Additional observations from a re-analysis of the deposited data

Results flagged for a closer look

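In 4 arrays of 1 genotype, a value far from the other 3 relative to their whole range was sought in 60 groups of values, and chance gives about 1 such group in 20. It was found in 3. Oxsr1 read 111.9 in wild-type replicate 4, against 108.7 to 108.9 in the other wild-type arrays, a difference smaller than the spread in TBC1D4-deficient arrays (100.1 to 120). The intercalated cell marker mean was 0.269 on the log2 scale in TBC1D4-deficient replicate 2, against -0.239 to -0.163 in the other TBC1D4-deficient arrays. The leukocyte marker mean was -0.036 in wild-type replicate 4, against -0.0104 to -0.0067 in the other wild-type arrays, and all leukocyte markers were dim, with Cd68 the brightest at 8.93.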

How the results depend on the processing

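Under 169 alternative values of the 8 genes' log2 differences, 0 had a limma adjusted p below 0.05 (lowest 0.997), and the differences ran from -0.14 to 0.07. Cul3 and Wnk1 stayed below 0 in all of theirs. The filter, the rows fitted and the prior cannot move a difference. Nor can the replicate block or the number sets as a covariate, each balanced for genotype. Differences under these settings repeat those of the main fit. For the other 6 genes, whose differences were close to 0, the sign turned in 24. With quantile normalization Slc12a3 stood at 0.034, and after centring of every array on its median it stood at 0.018 and Ppp1r1a at 0.0136. Array weights gave 0.0022 for Slc12a3. The arrays numbered 5 to 8 alone gave 0.0205 for Slc12a3, -0.0241 for Wnk4, -0.0264 for Oxsr1 and 0.00215 for Ppp1r1a, and those numbered 9 to 12 alone gave 0.0292 for Stk39. With the range of the identifiers in the descriptions as a covariate, Slc12a3 stood at 0.0199 and Nedd4l at -0.0184. These ranges were not balanced: most TBC1D4-deficient arrays had low identifiers and most wild-type arrays high ones. Fitted beside the mean of the proximal tubule markers, Oxsr1 stood at -0.00129 and Ppp1r1a at 0.00639. Leaving out each array in turn gave -0.0175 to 0.0195 for Slc12a3, -0.0137 to 0.0496 for Wnk4, -0.0615 to 0.00935 for Stk39, -0.0248 to 0.0624 for Oxsr1, -0.0174 to 0.0488 for Nedd4l and -0.0361 to 0.0179 for Ppp1r1a. The sign turned without TBC1D4-deficient replicate 1 (Oxsr1 -0.0248, Ppp1r1a 0.0133), 2 (Wnk4 -0.0137), 3 (Oxsr1 -0.000116) or 4 (Slc12a3 0.00572, Stk39 0.00935, Nedd4l -0.0103), and without wild-type replicate 1 (Slc12a3 0.0195), 2 (Ppp1r1a 0.0179) or 4 (Nedd4l -0.0174, Ppp1r1a 0.00535). The cause was not tested. The count of calls was 1 probe set, 0 of the 8 genes and 0 of the wider list in every alternative run.

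Replicate numbers were not taken as pairs in the main fit. Same-numbered arrays had correlations of their deviations from -0.19 to 0.40, and 1 of 4 TBC1D4-deficient arrays correlated best with its own number. Such correlations cannot show whether the samples were paired by design. The fit with a replicate block left the Slc12a3 difference at -0.0025, as any block with 1 array of each genotype must, and changed no call. Klhl3 could not be tested.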

Other observations

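Both probe sets of Rbx1, the RING subunit that works with CUL3, stood above 0. The brighter one read 120.2 to 134.2 in TBC1D4-deficient arrays and 118.7 to 123.3 in wild-type arrays. The dimmer one, picked after its values were seen, read 52.92 to 57.33 in TBC1D4-deficient arrays and 42.59 to 50.63 in wild-type arrays. These groups did not overlap, which held for 1.85% of all probe sets. Its log2 difference was 0.20 (95% interval 0.05 to 0.36; limma adjusted p = 0.9999), with p = 0.0286 by exact permutation, the lowest value that 4 against 4 arrays allow. Cul3 itself stood at -0.08 with an interval that crossed 0 (-0.21 to 0.06), and a relation between the 2 genes was not tested. Ppp1cb had a log2 difference of -0.34 within the arrays numbered 5 to 8 and -0.04 within those numbered 9 to 12, and whether these differ was not tested.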
